A study of Mus musculus with 8 samples.

Results

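The genes described here are 10 clade A serpins of the mouse chromosome 12 serpin cluster: Serpina3c, Serpina3f, Serpina3g, Serpina3i, Serpina3k, Serpina3m and Serpina3n of the Serpina3 group, with Serpina10, Serpina11 and Serpina12. They were chosen by symbol from a table of 55450 genes, among the clade A serpins of that cluster outside the Serpina1 family and Serpina6, and the other cluster genes (such as Serpina5, Serpina9 and Serpina3b) are counted as neighbours. RNA was measured in 8 livers of mice aged 10 weeks at the start of feeding. The 4 controls had floxed Cebpa and no Cre (Cre-), and the 4 knockouts had Cre (Cre+) and lacked Cebpa, which encodes the transcription factor C/EBP alpha, in hepatocytes. Every mouse was fed ethanol (5% by volume in a liquid diet, for 4 weeks, after 5 days on the ethanol-free control liquid), so no liver here is free of ethanol. Neither the promoter that drives Cre nor the sex of the mice is stated in the labels. The comparison asks which liver RNAs differ between the genotypes under ethanol feeding.

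Serpins are protease inhibitors that trap their target: the protease cuts an exposed reactive centre loop and is then held in a covalent complex. In humans SERPINA3 (alpha-1 antichymotrypsin) is a single acute phase plasma protein, whereas in the mouse the locus expanded into a group of paralogs that differ most in that loop. Several are secreted by hepatocytes and others are expressed in leukocytes, and clade A serpins beside them act in coagulation (Serpina10) or as an adipokine (Serpina12, vaspin).

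Libraries held between 21048350 and 28148744 expected counts, and 1 count was worth 0.0341 to 0.0485 CPM (counts scaled to library size, on TMM-scaled library sizes). Cebpa stood at 263.6 to 320.3 CPM in the controls and 5.44 to 9.26 CPM in the knockouts, with knockout 4 at 6.24 CPM inside the range of its group. All 10 hepatocyte markers were detected, and their summed level was 74010 to 98610 TPM (transcript abundance scaled to gene length) in controls and 96020 to 103500 TPM in knockouts. Most of this sum was Alb, at 43450 to 63750 TPM in controls and 63250 to 67180 TPM in knockouts. Single markers went both ways. Cps1 was at 532.4 to 743.1 TPM in controls and 377.8 to 518.9 TPM in knockouts, and Ttr at 4873 to 6174 TPM and 6170 to 8591 TPM. No pair of livers within a group agreed within counting noise (chi-square per degree of freedom of 34 or more). The labels do not say which livers share a litter or a processing day, so the p-values measure the spread between these livers, which may be technical in part. Control 2 and knockout 4 stood apart from their groups in several of the genes below, and values without them are given where they matter.

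No gene of the group passed edgeR's test between genotypes with all 8 livers. In bulk liver RNA, fewer cells that express a gene and less RNA per cell cannot be told apart. Of the 10 genes, 8 had enough counts to be tested (Serpina3c and Serpina3i did not), and edgeR's quasi-likelihood test called 0 of the 8, where it called 2.06% of all 13303 tested genes. An unadjusted p below 0.05 was found for 4 of the 8 (18.5% of all tested genes): Serpina12, Serpina3g, Serpina3k and Serpina3f. DESeq2 called 1 of the 8, Serpina12 (6.45% of all genes), and so did limma-voom (1.77%) and limma-trend on log2 TPM with a pseudocount of 1 (1.71%) or 0.1 (1.65%). The log2 fold change was negative for 6 genes and positive for 2, with a median of -0.28 against 0.0036 over all tested genes. The groups did not overlap for 1 of the 8, Serpina12, which was lower in the knockouts (11.5% of all tested genes were apart, in either direction). Leaving out knockout 4 brought 2 of the 8 below the threshold, Serpina12 and Serpina3k, both with negative fold changes, where 2.77% of all genes were called. The same 2 genes were called when control 2 was left out as well (3.22% of all genes). Other members kept their side of the threshold in the fits that left out 1 liver.

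**Figure D1:**
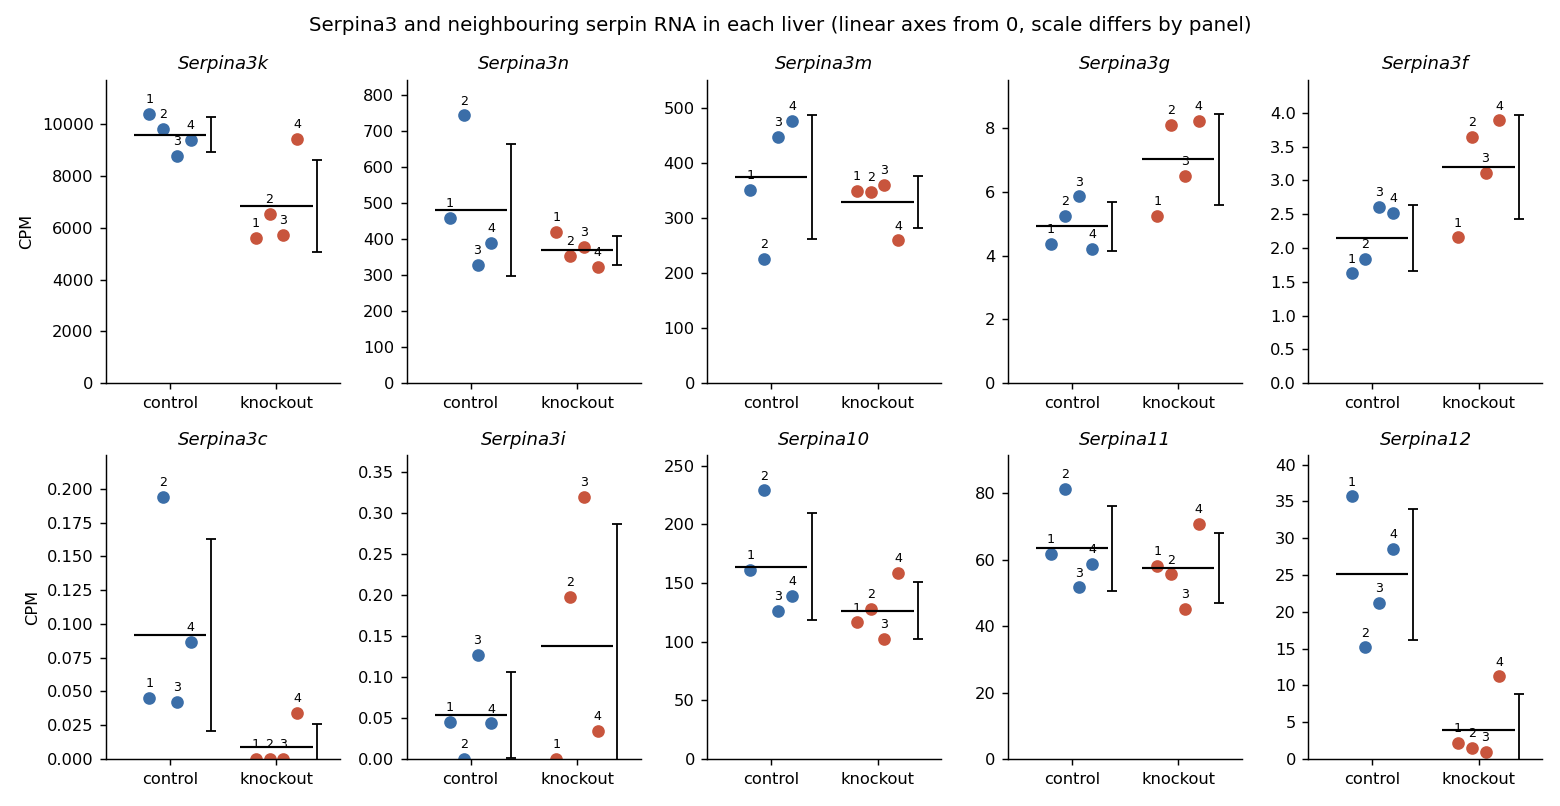
Level of each of the 10 genes in every liver, in CPM on linear axes that start at 0 and differ in scale between panels. Points are livers with their replicate number, the horizontal line is the group mean and the bar beside it is 1 SD (n = 4), cut off at 0. Knockout 4 lies above the other knockouts for Serpina3k (9420 CPM) and Serpina12 (11.2 CPM), and control 2 lies above the other controls for Serpina3n (743.6 CPM).

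The levels span the range from a major liver mRNA to near silence. In controls the order per length was Serpina3k (6394 TPM), Serpina3n (320 TPM), Serpina3m (317.4 TPM), Serpina10 (112.7 TPM), Serpina11 (64.6 TPM), Serpina12 (8.86 TPM), Serpina3g (4.73 TPM), Serpina3f (1.32 TPM), Serpina3c (0.0575 TPM) and Serpina3i (0.035 TPM). Serpina3k ranked between 21 and 32 among all genes in each liver. Of neighbours in this order, the ranges over the 4 controls overlapped for Serpina3n with Serpina3m and for Serpina3c with Serpina3i, and were apart for the rest. Serpina10 was above Serpina11 in each of the 8 livers. In the knockouts Serpina12 (1.54 TPM) stood below Serpina3g (7.57 TPM) and Serpina3f (2.11 TPM), although its range overlapped that of Serpina3f. Serpina12 was above Serpina3g in the 4 controls and below it in the 4 knockouts.

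Serpina3k alone carried most of the Serpina3 RNA. Its share of the summed TPM of the 7 Serpina3 genes was 90.4% to 91.9% in controls, 86.6% to 89.0% in knockouts 1 to 3 and 93.4% in knockout 4. Serpina3m held 2.65% to 5.86% in controls and 3.27% to 6.94% in knockouts, and Serpina3n 3.38% to 6.81% and 3.20% to 6.43%. The remaining Serpina3 genes each held at most 0.164% in every liver.

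The sequences before the start of Serpina3n and Serpina3c are shown because these close copies lay far apart in level. RefSeq windows (GRCm38.p6) of 250 bases upstream were at hand for 7 of the 10 genes, not for Serpina3k, Serpina3m or Serpina10. Among these the closest pair was Serpina3n and Serpina3c, identical at 229 of 253 aligned positions (90.5%), with 18 substitutions and 6 gap positions. The next pair of different genes, Serpina3c and Serpina3i, was identical at 66.1%. Both sequences are shown 5′ to 3′ on the strand of the gene, with capitals for the 21 bases in each that differ from, or are missing in, the other. Serpina3n lies at chr12:104406458-104406707 on the plus strand and Serpina3c at chr12:104153873-104154122 on the minus strand.
Serpina3n: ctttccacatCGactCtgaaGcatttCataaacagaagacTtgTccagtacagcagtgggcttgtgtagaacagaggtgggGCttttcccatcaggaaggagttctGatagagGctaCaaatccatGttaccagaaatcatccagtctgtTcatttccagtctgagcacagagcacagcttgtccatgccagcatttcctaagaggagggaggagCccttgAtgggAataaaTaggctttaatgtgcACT
Serpina3c: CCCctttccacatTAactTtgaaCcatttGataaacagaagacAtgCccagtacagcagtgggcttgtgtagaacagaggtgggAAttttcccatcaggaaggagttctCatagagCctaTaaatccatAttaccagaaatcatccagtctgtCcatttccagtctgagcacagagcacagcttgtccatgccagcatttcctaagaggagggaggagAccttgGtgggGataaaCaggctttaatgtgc
With these upstream windows Serpina3n stood at 223.8 to 505.8 TPM in the controls and Serpina3c at 0.03 to 0.12 TPM.

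Serpina3k encodes an abundant secreted serpin that binds tissue kallikrein and is also called contrapsin. The gene (ENSMUSG00000058207.6) is on the plus strand of chromosome 12 (mm10, 104338486 to 104346144). It measured 10390, 9835, 8792 and 9407 CPM across controls 1 to 4, against 5625, 6551, 5741 and 9420 CPM across knockouts 1 to 4. Knockouts 1 to 3 lay below every control, while knockout 4 lay within the control range. The means were 9605 ± 674 CPM and 6834 ± 1772 CPM (SD, n = 4), a log2 fold change of -0.49 (SE 0.17, 95% interval -0.88 to -0.11) that missed the threshold (edgeR adjusted p = 0.174). Without knockout 4 the knockout mean was 5972 ± 504 CPM (SD, n = 3) and the log2 fold change -0.69 (edgeR adjusted p = 0.0285). Over the 8 fits that left out 1 liver, the adjusted p otherwise ran up to 0.355, without knockout 2.

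Serpina3m is annotated over Serpina3k, since its gene model (ENSMUSG00000079012.11, 104338486 to 104394257, plus strand) starts at the same base and runs on over the pseudogene Serpina3l-ps. Both genes shared 257 stretches of 50 bases, which is 12.8% of those of Serpina3k and 16.0% of those of Serpina3m, so the division of their reads rests on the authors' estimation. Serpina3m was at 351.6, 226.1, 446.8 and 476.8 CPM across controls 1 to 4, against 349.9, 347.0, 359.6 and 259.5 CPM across knockouts 1 to 4. Control 2 was the lowest control and knockout 4 the lowest knockout, whereas control 2 was the highest control for Serpina3n and knockout 4 the highest knockout for Serpina3k. The groups overlapped, at a log2 fold change of -0.19 (SE 0.22, 95% interval -0.68 to 0.30, edgeR adjusted p = 0.673), which was -0.37 without control 2 (adjusted p = 0.237) and ranged up to -0.06 over the other fits that left out 1 liver.

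Serpina3n encodes a secreted inhibitor of granzyme B and other serine proteases and is known in the mouse as an acute phase gene. The gene (ENSMUSG00000021091.8) is on the plus strand (104406729 to 104414329). It measured 459.6, 743.6, 329.5 and 390.4 CPM across controls 1 to 4, against 419.1, 352.7, 378.8 and 324.0 CPM across knockouts 1 to 4. Control 2 was the highest of all livers, and the other controls overlapped the knockouts. The means were 480.8 ± 183 and 368.6 ± 40.4 CPM (SD, n = 4), a log2 fold change of -0.38 (SE 0.23, 95% interval -0.90 to 0.13, edgeR adjusted p = 0.405). Without control 2 the control mean was 393.2 ± 65.1 CPM (SD, n = 3) and the log2 fold change -0.10 (adjusted p = 0.780). The summed level of 23 acute phase plasma protein genes was likewise highest in control 2, at 58430 TPM, with 13900 to 17370 TPM in the other controls and 11920 to 16480 TPM in the knockouts. Its part in the value of Serpina3n was not tested.

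Serpina3g and Serpina3f had the positive differences of the group, at low levels. Serpina3g (ENSMUSG00000041481.16, 104236245 to 104241939, plus strand), also called Spi2A, is known in leukocytes as an inhibitor of cysteine cathepsins. It was at 4.38, 5.24, 5.86 and 4.21 CPM across controls 1 to 4, against 5.26, 8.11, 6.49 and 8.22 CPM across knockouts 1 to 4. Knockouts 2, 3 and 4 were above every control and knockout 1 was among them. The log2 fold change was 0.51 (SE 0.18, 95% interval 0.12 to 0.91, edgeR adjusted p = 0.166). Serpina3f (ENSMUSG00000066363.12, 104214544 to 104221129, plus strand), its close paralog, was at 1.63, 1.844, 2.61 and 2.52 CPM across controls 1 to 4, against 2.16, 3.64, 3.11 and 3.89 CPM across knockouts 1 to 4. Again knockout 1 lay among the controls and the other knockouts lay above them, with a log2 fold change of 0.57 (SE 0.24, 95% interval 0.04 to 1.104, edgeR adjusted p = 0.235). Summed counts behind these values were 194 (controls) and 322 (knockouts) for Serpina3f, and 441 and 705 for Serpina3g. Of the stretches of 50 bases, 6.03% of Serpina3f recurred in Serpina3g, and 8.89% of Serpina3g in the pseudogene Serpina3h.

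Markers of the cells in which Serpina3f and Serpina3g are known to be expressed were summed by list, and some sums were low. In each of these lists the lowest and the highest sum were both higher in the knockouts. The ranges of the groups overlapped in all of these lists except that of B cells. The 8 markers of T and natural killer cells summed to 1.40 to 3.26 TPM in controls and 2.23 to 4.13 TPM in knockouts. The 10 macrophage and Kupffer cell markers summed to 136.1 to 279.0 TPM and 234.2 to 395.2 TPM, and the 8 endothelial markers to 69.3 to 91.3 TPM and 86.1 to 127.1 TPM. The 5 B cell markers ran from 1.16 to 3.49 TPM and 3.64 to 34.5 TPM, mainly Ighm in the knockouts. The 7 neutrophil markers summed to 0.69 to 3.25 TPM and 1.16 to 4.68 TPM, with Ly6g and Mpo at 0 in all 8 livers. No marker of these lists passed edgeR's test. Only 1 T and natural killer cell marker, 1 B cell marker and 0 neutrophil markers had enough counts to be tested. All 10 macrophage and Kupffer cell markers and all 8 endothelial markers were tested. Duct markers differed more, with sums of 24.5 to 64.5 TPM in controls and 118.6 to 414.9 TPM in knockouts. Of 5 tested, 3 were called higher, where edgeR called 2.06% of all tested genes. Most of this sum was Spp1, at 22.1 to 61.1 TPM in controls and 113.6 to 408.7 TPM in knockouts. The other duct markers were each at most 2.12 TPM in every liver. Krt7 and Cftr overlapped between the groups, and Sox9 met at 1.05 TPM in control 2 and knockout 1. The part of these cells in the values of Serpina3f and Serpina3g was not tested.

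Serpina3c and Serpina3i were close to the limit of detection. Serpina3c (ENSMUSG00000066361.3, 104146382 to 104153870, minus strand), known from adipose tissue, had 1, 4, 1 and 2 counts in controls 1 to 4, 0 in knockouts 1 to 3 and 1 in knockout 4. The summed counts gave a ratio of controls to knockouts of 8.82 with a 95% counting interval of 1.18 to 391.2. The p was the smallest that the 70 splits allow (two-sided exact permutation test of mean CPM, p = 0.0286). It rests on library size, since knockout 4 tied with controls 1 and 3 at 1 count. That count was worth 0.0341 CPM in knockout 4 and 0.0451 and 0.0421 CPM in those controls. A count of 0 allows up to 0.119 to 0.137 CPM in those 3 libraries, which includes the level of 3 of the 4 controls. Serpina3i (ENSMUSG00000079014.4, 104263122 to 104269372, plus strand) had 5 counts in all controls together and 13 in all knockouts, so that the knockout level was 2.36 times the control level, with a 95% counting interval of 0.789 to 8.45 (exact permutation p = 0.4). These intervals cover counting error only. Serpina3i shared 15.9% of its stretches of 50 bases with other genes, 9.82% with Serpina3h.

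Serpina12 had the largest fold change of the 8 tested genes. It encodes vaspin, a serpin described as an adipokine that inhibits kallikrein 7, and the gene (ENSMUSG00000041567.3) spans 104028769 to 104044443 on the minus strand. It measured 35.7, 15.1, 21.2 and 28.5 CPM across controls 1 to 4, against 2.20, 1.503, 0.960 and 11.2 CPM across knockouts 1 to 4. Every knockout was below every control, and knockout 4 stood far above the other knockouts. The means were 25.1 ± 8.90 and 3.97 ± 4.86 CPM (SD, n = 4), a log2 fold change of -2.62 or 6.15-fold lower (SE 0.76, 95% interval -4.42 to -0.83), which did not pass edgeR's test (adjusted p = 0.139). Without knockout 4 the knockout mean was 1.56 ± 0.622 CPM (SD, n = 3) and the log2 fold change -4.01, 16.1-fold lower (SE 0.40, edgeR adjusted p = 0.00380). With all 8 livers DESeq2 gave -2.66 (adjusted p = 0.0219) and limma-voom -3.18 (adjusted p = 0.0351). Of the 7 other fits that left out 1 liver none called it, with adjusted p up to 0.298 without knockout 2.

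None of the stretches of 50 bases in Serpina12 recurred in another gene. The adipocyte markers Adipoq, Lep, Plin1 and Retn were at 0 in all 8 livers. The other markers of that list of 6 went in opposite directions, with Cfd at 0 to 4.30 TPM in controls and 9.45 to 30.8 TPM in knockouts, and Adrb3 at 0.05 to 0.67 TPM in controls and 0 to 0.04 TPM in knockouts. The part of adipocytes in the values of Serpina12 was not tested. The sequence before its start, at chr12:104044444-104044693 on the minus strand of GRCm38.p6, is shown because Serpina12 differed most between livers with and without Cebpa, with capitals for matches to C/EBP-type letters.
Serpina12: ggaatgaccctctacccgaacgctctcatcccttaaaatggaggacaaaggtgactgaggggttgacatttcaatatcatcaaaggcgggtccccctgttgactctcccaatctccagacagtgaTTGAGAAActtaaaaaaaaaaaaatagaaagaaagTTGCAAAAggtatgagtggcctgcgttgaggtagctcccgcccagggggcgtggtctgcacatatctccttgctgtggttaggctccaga
The letters searched on both strands were TTNNGNAA and TTGCNNAA for C/EBP factors. The windows for this search ran from 250 bases before to 50 bases after the start. The first match, at -125, is to TTNNGNAA, and the match at -90 fits both. Every match to TTGCNNAA also fits TTNNGNAA on the other strand, so these are not separate searches. TTNNGNAA occurred in 7 of 9 windows of the described genes and in 40.7% of all 32851 windows, in Serpina3c, Serpina3f, Serpina3g, Serpina3i and Serpina3n as well as Serpina12. TTGCNNAA occurred in 3 of 9 and in 10.8%, in Serpina12 and in both overlapping windows of Serpina3f, whose fold change was positive. TTCNNNGAA, the form bound by STAT factors, occurred in 6 of 9 windows against 8.3% of all windows, namely those of Serpina11, Serpina3f, Serpina3g and Serpina3i, with 2 overlapping windows each for Serpina11 and Serpina3f. GTTAAT, a core of HNF1 sites, occurred in 1 of 9 windows, that of Serpina3c, and in 7.1% of all. These matches describe letters and not bound sites.

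Serpina10 encodes the protein Z-dependent protease inhibitor, which blocks coagulation factors Xa and XIa. The gene (ENSMUSG00000061947.10, 103614786 to 103631444, minus strand) was at 161.4, 228.8, 126.4 and 139.0 CPM across controls 1 to 4, against 116.4, 127.8, 102.0 and 158.8 CPM across knockouts 1 to 4. Control 2 was the highest control and knockout 4 the highest knockout, and the groups overlapped (log2 fold change -0.38, SE 0.20, 95% interval -0.82 to 0.07, edgeR adjusted p = 0.346). Without control 2 the log2 fold change was -0.17 and without knockout 4 it was -0.51. Serpina11 (ENSMUSG00000063232.16, 103980243 to 103989957, minus strand), a liver serpin of little known function, was at 61.8, 81.3, 51.7 and 58.8 CPM across controls 1 to 4, against 58.0, 55.6, 45.2 and 70.8 CPM across knockouts 1 to 4. The same livers, control 2 and knockout 4, were the highest of their groups, and the groups overlapped (log2 fold change -0.14, SE 0.16, 95% interval -0.50 to 0.22, edgeR adjusted p = 0.672). Without control 2 the log2 fold change of Serpina11 was -0.0017. It shared 35.7% of its stretches of 50 bases with Gm28577, a transcript on the same strand that overlaps it, so its level is uncertain.

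**Figure D2:**
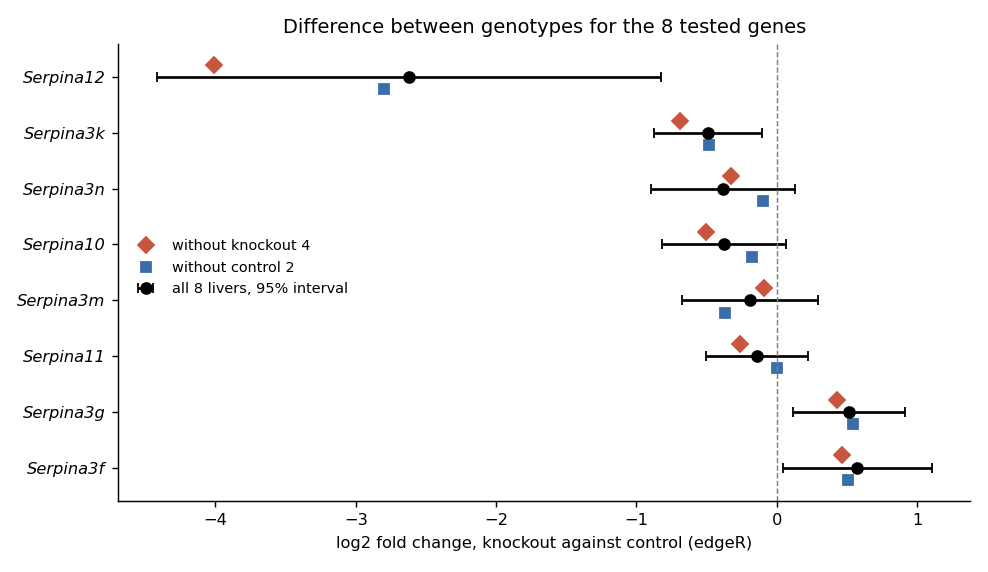
Log2 fold change of knockout against control for the 8 tested genes, from edgeR. Black points with bars are the fit with all 8 livers and its 95% interval, diamonds the fit without knockout 4 and squares the fit without control 2. Serpina12 moves from -2.62 to -4.01 without knockout 4, and Serpina3n from -0.38 to -0.10 without control 2.

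Along the chromosome, the described genes lie on both sides of the Serpina1 family. The annotation places 28 Serpina genes and pseudogenes in 799.5 kb of chromosome 12 (103614786 to 104414329), of which 16 were tested and 6 called. Over all tested genes edgeR called 2.06%. The 6 called were the 5 tested Serpina1 genes and Serpina6, all lower in the knockouts. Of the 8 tested genes described here 0 were called, which is near that share. Serpina11 lies next to Serpina1e, Serpina12 lies past Serpina9, and Serpina10 lies next to Serpina6. The 8 tested genes of the cluster that are not described here, with Serpina9 and the pseudogene Serpina4-ps1 uncalled, had a median log2 fold change of -0.97. The list of 16 other clade A serpins also holds Serpina7, which lies on chromosome X, and of its 9 tested genes 6 were called lower. The lowest adjusted p among them belonged to Serpina1a (log2 fold change -1.496, edgeR adjusted p = 0.00364), Serpina1c (-1.45, adjusted p = 0.00675) and Serpina1d (-1.04, adjusted p = 0.00831), members of the alpha-1 antitrypsin family. Whether the fold changes of these neighbours differ from those of the described genes was not tested.

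**Figure D3:**
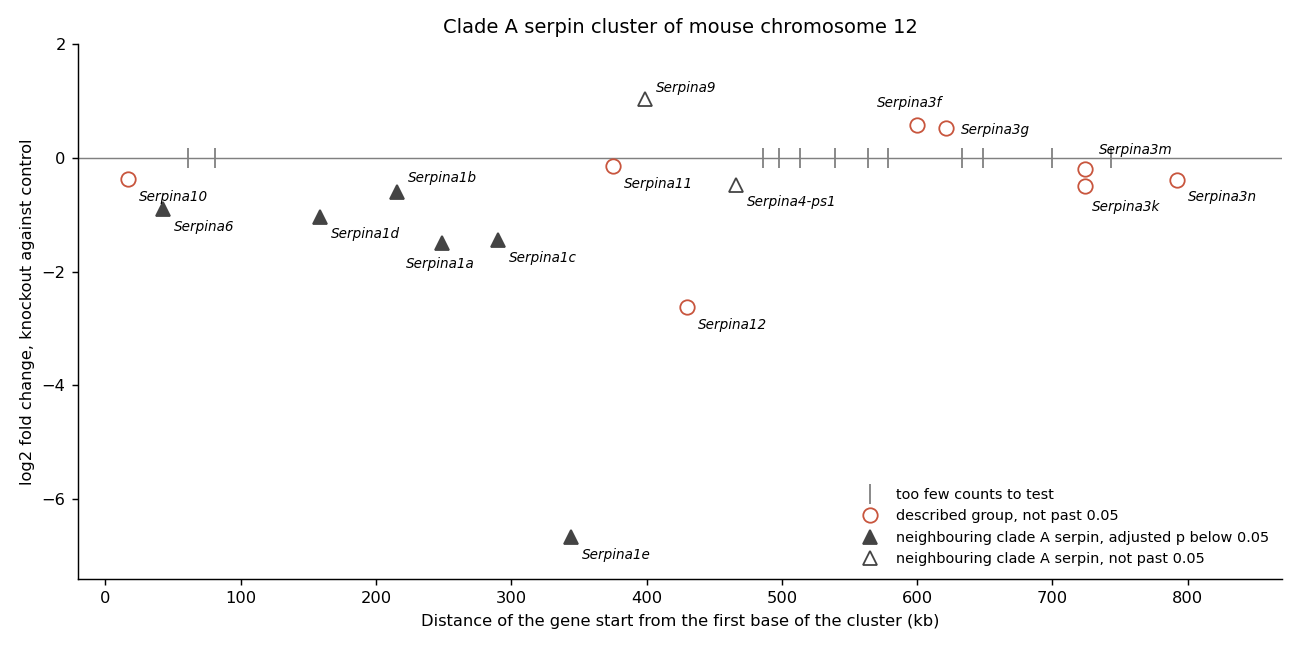
Log2 fold change of each tested clade A serpin by the distance of its annotated start from the first base of the cluster, in kb. Circles are the described genes and triangles their neighbours, filled where the edgeR adjusted p was below 0.05, and ticks on the 0 line are genes with too few counts. The 6 filled symbols are Serpina1 genes and Serpina6, and Serpina3m is drawn at the start of Serpina3k, where its gene model begins.

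The 7 Serpina3 genes summed to 7278, 7423, 6614 and 6834 TPM in controls 1 to 4 and 4576, 5576, 4549 and 7348 TPM in knockouts 1 to 4. Knockouts 1 to 3 were below every control and knockout 4 was among them. The 6 Serpina1 genes summed to 18600 to 26160 TPM in controls and 8147 to 10770 TPM in knockouts, with no overlap. The Serpina3 sum divided by the Serpina1 sum was therefore 0.284 to 0.367 in controls and 0.540 to 0.682 in knockouts. Unlike the Serpina3 sum itself, the ratio in knockout 4 (0.682) lay beside that of knockout 2 (0.657). These sums are descriptions over chosen genes and carry no test.

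**Figure D4:**
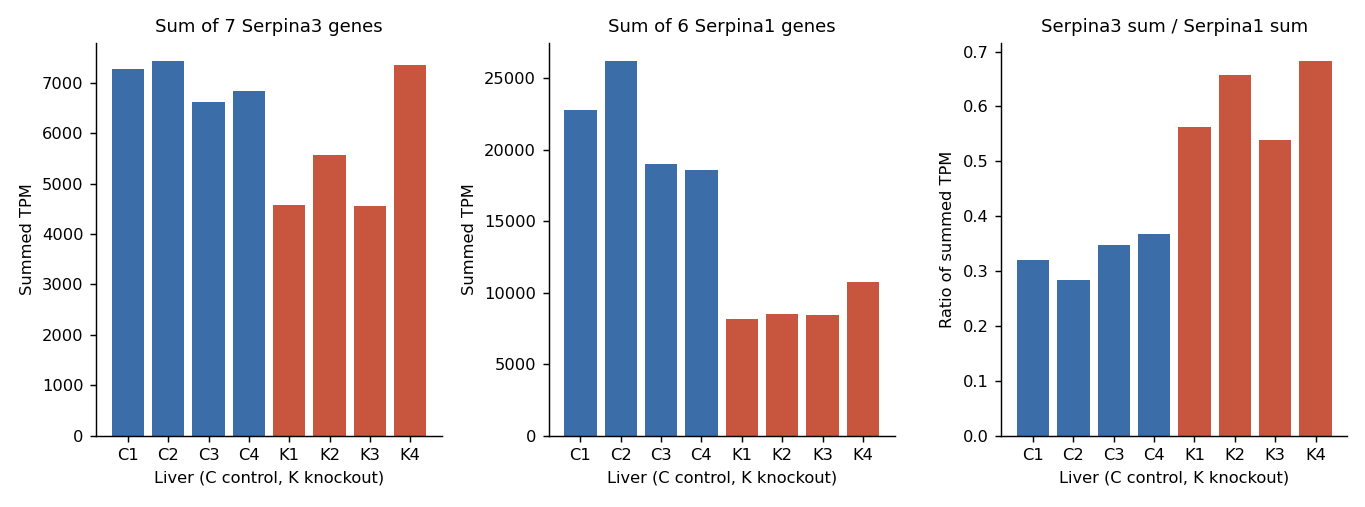
Summed TPM of the 7 Serpina3 genes (left) and the 6 Serpina1 genes (middle), and their ratio (right), in each control (C1 to C4) and knockout (K1 to K4) liver, as bars from 0. The Serpina3 sum of K4 (7348 TPM) reaches the controls, and the ratio is between 0.540 and 0.682 in the 4 knockouts against at most 0.367 in the controls.

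Serpins outside the cluster and the proteases and cofactors that meet these inhibitors gave 1 call each by edgeR. Over all tested genes edgeR called 2.06% and DESeq2 6.45%, and 18.5% had an unadjusted p below 0.05. Of 13 tested serpins of other clades, Serpinb6b, an intracellular serpin, rose (1.74 ± 0.253 to 4.73 ± 1.198 CPM, SD, n = 4, log2 fold change 1.44, edgeR adjusted p = 0.0110) and none fell by that test, while 8 had an unadjusted p below 0.05, with 1 higher in DESeq2's calls and 2 lower. The next in adjusted p were Serpinf1 (log2 fold change -0.37, adjusted p = 0.0668) and the complement inhibitor Serping1 (-0.71, adjusted p = 0.0836). Of 10 tested target proteases and cofactors, coagulation factor F11, a target of Serpina10, fell (log2 fold change -1.38, edgeR adjusted p = 0.000488) and none rose by that test, while 4 had an unadjusted p below 0.05, with 1 higher in DESeq2's calls and 2 lower. Plau (1.09, adjusted p = 0.107) and Klkb1 (-0.34, adjusted p = 0.131) followed. The cofactor and main target of Serpina10 did not pass the test, as Proz had a log2 fold change of -0.12 (adjusted p = 0.575) and F10 of -0.09 (adjusted p = 0.713). Proz and F10 are named here with their values already known. The median log2 fold change was 0.33 for the serpins of other clades and -0.07 for the proteases.

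Lists of signalling and response genes, acute phase plasma proteins and liver transcription factors were read in the same way. The shares over all tested genes were again 2.06% (edgeR), 6.45% (DESeq2) and 18.5% (unadjusted p below 0.05), and 2.77% for edgeR without knockout 4. Of 15 tested genes of IL-6 type and glucocorticoid signalling none passed edgeR's test, 3 had an unadjusted p below 0.05, and the median log2 fold change was -0.18. The lowest adjusted p belonged to Stat3 (log2 fold change -0.33, adjusted p = 0.0665), the feedback inhibitor Socs3 (-1.11, adjusted p = 0.104) and the glucocorticoid receptor Nr3c1 (-0.22, adjusted p = 0.163). DESeq2 called 2 of the 15. Without knockout 4, edgeR called 1 of the 15 lower. Of 23 acute phase plasma protein genes, Orm1 fell (log2 fold change -8.87, edgeR adjusted p = 0.0465), with Lbp (-1.26, adjusted p = 0.114) and Lrg1 (-1.32, adjusted p = 0.125) next and a median of -0.94, and the call of Orm1 was lost without knockout 4 (0 of 23 called). An unadjusted p below 0.05 was found for 13 of the 23, the log2 fold change was negative for 21, with 4 called lower by DESeq2, which left 5 without an adjusted p. Control 2 had the highest summed level of this list (58430 TPM, against 13900 to 17370 TPM in the other controls). The median was -1.03 without knockout 4. With control 2 left out as well it was -0.57, with 22 negative. Of 9 growth hormone signalling genes, Igfals fell (-0.63, adjusted p = 0.00823), and Bcl6 (2.22, adjusted p = 0.160) and Stat5a (0.34, adjusted p = 0.213) did not pass, while 3 had an unadjusted p below 0.05, with 1 higher in DESeq2's calls and 1 lower. Of 24 interferon response genes none passed, 7 had an unadjusted p below 0.05, DESeq2 called 2, and the median was -0.07, with B2m (-0.40, adjusted p = 0.0771), H2-K1 (-0.34, adjusted p = 0.158) and Igtp (-0.57, adjusted p = 0.199) lowest in p. Of 17 liver transcription factor genes, Cebpa fell (-5.37), and Cebpb (0.55, adjusted p = 0.132) and Foxa3 (-0.45, adjusted p = 0.134) did not pass, while 5 had an unadjusted p below 0.05, with 1 higher in DESeq2's calls and 1 lower.

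Genes nearest in pattern to 3 members were read from the deviations of log2 CPM from each group's mean over the 8 livers, among the 11947 genes that averaged 1 CPM or more. For Serpina3n they were Hdlbp, H2afv, Scap, Pigs and Abca2 (Pearson r 0.992 to 0.977), for Serpina3k Larp4b, Xbp1, Lsg1, Gtpbp4 and Crtc3 (0.99 to 0.971), and for Serpina12 Wdr3, St3gal1, Casd1, Gm37254 and Ajuba (0.984 to 0.965). None of these 15 genes was called between genotypes, where edgeR called 2.06% of all tested genes. The group means were removed beforehand, so calls between genotypes do not bear on these patterns. No other described gene was among the 15. Between members, Serpina12 and Serpina3k deviated together (r = 0.852), and Serpina3n and Serpina3m in opposite directions (r = -0.741), while Serpina3n and Serpina3k did neither (r = -0.0931). All of these points share the same 8 libraries, and single livers stood out in them. Knockout 4 was the highest knockout for Serpina12 (11.2 CPM) and Serpina3k (9420 CPM). Control 2 was the highest control for Serpina3n (743.6 CPM) and the lowest for Serpina3m (226.1 CPM). How far the r values and the genes nearest in pattern rest on these livers was not tested.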

How the data were processed

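Messenger RNA of 8 livers was sequenced after a stranded TruSeq preparation, as the labels' protocols record. Trimmomatic 0.36, STAR 2.5.1, Picard 1.84, RSEM 1.2.22, DESeq2 and mm10 are listed, without their roles, per the submitters' processing notes. Each liver's deposited file has expected counts from RSEM, which divides reads that paralogs share, and the authors' TPM. Neither a strand setting nor an annotation release is given in the sources used here. Every one of the 55450 identifiers matched GENCODE M21, which supplied coordinates. A deposited series-wide matrix repeated these counts exactly.

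Expected counts were rounded and tested in R 4.3.3 with edgeR 4.0.16 (filterByExpr with a minimum count of 10 and total of 15, TMM, robust quasi-likelihood test, two-sided, Benjamini-Hochberg over all 13303 tested genes, threshold 0.05). The steps were tested on simulated data, where 23.1% of 1.5-fold, 65.6% of 2-fold and 90.8% of 4-fold changes were called. Of the calls made there, 9.38% were false. A gene that was not called may therefore still differ, above all by a small fold. Intervals are at 95%. Genes below the filter were compared by an exact permutation test over 70 splits. Alternatives used DESeq2 1.42.0 and limma 3.58.1, other scaling, filters and pseudocounts, and fewer livers. Stretches of 50 bases were compared over GENCODE M21 transcripts, and promoter windows come from RefSeq. Protein sequences were not used here. Members and lists were chosen with earlier results of these data known. All members and, from each list, the 3 genes with the smallest adjusted p are named, and the few exceptions are marked. Figures were drawn with matplotlib 3.10.9.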

Additional observations from a re-analysis of the deposited data

Results flagged for a closer look

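Within-group gaps were examined for the 10 genes in both groups (20 sets of 4 livers), and chance alone flags about 1 in 20. Knockout 4 lay far from the other knockouts for 2 genes. Serpina12 was at 11.2 CPM in knockout 4 and 0.960 to 2.20 CPM in the others. Serpina3m was at 259.5 CPM in knockout 4 and 347.0 to 359.6 CPM in the others, in the other direction. Serpina3c was at 0.0341 CPM in knockout 4 with 0 counts in the others, which met the same measure by construction. It rests on 1 count and is below the 0.119 to 0.137 CPM that a count of 0 allows in those libraries, so it shows no liver set apart.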

How the results depend on the processing

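No tested gene of the group changed the sign of its log2 fold change in any of 19 alternatives. Serpina3f, Serpina3g, Serpina3m, Serpina3n, Serpina10 and Serpina11 stayed above the threshold in all 19, and Serpina3k and Serpina12 passed it in 2 and 6. The number of these genes called lower was 0 in the test reported, 1 with DESeq2, limma-voom and limma-trend on log2(TPM + 1) and on log2(TPM + 0.1), 2 without control 2 and knockout 4 together, and 0 to 2 with 1 liver left out. The number called higher was 0 in every alternative. On the TPM scales Serpina12 had a log2 fold change of -2.15 (limma-trend adjusted p = 0.0354, pseudocount 1) and -3.001 (adjusted p = 0.0475, pseudocount 0.1), where the median of all genes was 0.0913 and 0.116. Over all genes, 113 were called higher and 161 lower. DESeq2 gave 409 and 449, limma-trend 144 higher and 84 lower (pseudocount 1) or 137 and 82 (pseudocount 0.1), library size alone 161 higher and 115 lower, removal of control 2 and knockout 4 together 185 and 246, and 1 liver left out 46 to 167 higher and 61 to 205 lower.

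The replicate numbers of the titles gave no pairing, as deviations of same-numbered livers correlated at 0.207, 0.00904, -0.0243 and -0.0672. With the replicate block 0 of the described genes were called, as were 78 genes higher and 98 lower over all, and Serpina12 had a log2 fold change of -3.13 (edgeR adjusted p = 0.112). Why these values moved was not tested. Serpina3c, Serpina3i and Serpina3h are limited by depth.

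List counts and medians without knockout 4, or without it and control 2, were added after seeing the data. Over all genes, 2.77% and 3.22% were called in these fits. Without knockout 4, 0 acute phase, 1 IL-6 type and 2 liver transcription factor genes were called lower. Without both, 3 acute phase, 2 growth hormone, 1 other serpin, 1 IL-6 type and 2 liver transcription factor genes were called lower.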

Other observations

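Serpina3h, Serpina3e-ps and Serpina4-ps1, pseudogenes inside the cluster, were singled out after their values were seen. Serpina3h lies between Serpina3g and Serpina3i and was too low to be tested, with 1, 2, 3 and 2 counts in controls 1 to 4 and 6, 6, 5 and 9 in knockouts 1 to 4. The groups did not overlap, as in 11.5% of all tested genes (either direction). The ratio of knockouts to controls was 2.95 with a 95% counting interval of 1.30 to 7.54. Its shared stretches with Serpina3g and Serpina3i make this level uncertain. Serpina3e-ps, also too low to be tested, had fewer counts in the knockouts. It had 2, 1, 4 and 1 counts in controls 1 to 4 and 0, 0, 0 and 1 in knockouts 1 to 4. The counts met at 1 in controls 2 and 4 and knockout 4. The groups were apart in CPM only through library size (0.0341 CPM in knockout 4, 0.0434 CPM in control 4). Serpina4-ps1, next to Serpina12, varied by 9.22 times among the controls and 11.7 times among the knockouts. It was at 116.0, 19.0, 137.6 and 175.5 CPM across controls 1 to 4, against 21.3, 56.2, 19.3 and 225.1 CPM across knockouts 1 to 4. Control 2 was its lowest control and knockout 4 its highest liver, with no call between genotypes (log2 fold change -0.47, SE 0.99, edgeR adjusted p = 0.830).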
